A study of Mus musculus with 10 samples.

Results

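The extensor digitorum longus (EDL), a distal muscle of the hindlimb that extends the toes, was compared with the psoas, a deep muscle that runs from the lumbar spine to the femur and flexes the hip. All libraries that the labels name as psoas (3) or EDL (3) were taken, 6 of the 10 in the series, and all 16112 genes of the raw count files were tested. The 4 soleus libraries entered the estimate of the spread, the scaling of library sizes, and the correlations with tendon genes given below. The mice were of the strain B6C3Fe a/a-Ttnmdm/J with the genotype wild type in every group, that is, without the mdm mutation of the titin gene that the strain carries, and no treatment was named. The 3 EDL libraries came from mice aged 42, 54, and 44 days (male, male, and female), and the 3 psoas libraries from mice of the same ages and sexes, under other animal codes. The soleus libraries came from mice aged 42, 44, 32, and 44 days (1 male, 2 female, and 1 of unstated sex). Whole muscles stored in RNAlater were used, and ribosomal RNA was depleted before stranded library synthesis.

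Both muscles are built mainly of fast fibers, which take their speed from the myosin heavy chain isoform in their thick filaments. A muscle also keeps a record of where in the body it formed: its cells go on expressing Hox genes, whose order along the chromosome follows the body axis and, in the limb, the axis from shoulder or hip to the digits. A dissected muscle holds more than fibers, namely tendon, connective tissue, vessels, nerve, and immune cells, and the EDL is known for its long distal tendons. Genes of these tissues were therefore listed apart from genes of the fibers. The split is not complete, since Des, Musk, Itga7, Pax7, and Myf5 are on lists of both kinds.

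Total counts were between 13820086 and 50431713 in the 6 libraries, and 3 counts, the limit that a count of 0 allows, corresponded to between 0.0565 and 0.212 normalized CPM (counts scaled to library size). Such limits cover counting error only. Expression levels are given as CPM normalized by TMM (trimmed mean of M values), in the order of replicates 1, 2, and 3. The reads of replicates 1 and 2 of both muscles had been quality-trimmed and those of replicate 3 had not. Medians given below for untrimmed libraries therefore compare EDL 3 with psoas 3 alone, 1 library each. Trimming, replicate 3, and female sex coincided in these 6 libraries and cannot be told apart, although each muscle held the same mix. RNA integrity numbers, as listed by the study, were lower in every psoas library than in any EDL library, and their part in the results was not tested. EDL 1, psoas 1, and psoas 2 had between 9.25% and 12.4% of their counts in Lars2, the gene of mitochondrial leucyl-tRNA synthetase, and the other 3 libraries at most 0.076%. EDL 3 stood closer to the psoas libraries than EDL 1 and 2 did in many genes of the fiber, and results that rest on it are given with and without it.

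The make-up of the myosin heavy chains was checked first, on values per kilobase of exon. Myh4, the heavy chain of type 2B fibers, made up 75.2%, 78.8%, and 83.5% of the summed level of Myh4, Myh1, Myh2, and Myh7 in EDL, and 85.5%, 81.6%, and 70% in psoas (means of 79.2% ± 4.15 and 79% ± 8.09, SD, n = 3 each). The shares of the muscles overlapped (exact permutation test, two-sided, p = 1.0, the smallest possible being 0.1). Myh1, of type 2X fibers, made up 16.5% ± 2.91 and 16.2% ± 5.74, with overlapping libraries (exact permutation p = 1.0). These heavy chain genes are close paralogs, and reads that match more than one of them may have been counted unevenly. Myh2, of type 2A fibers, made up 4.23% ± 1.44 and 4.76% ± 2.36 (exact permutation p = 0.8). Myh7, the slow heavy chain, was at most 0.124% in any library of either muscle, and between 19.7% and 42.6% in soleus. Its share was 0.0103%, 0.0426%, and 0.124% in EDL and at most 0.01% in psoas, so these small shares did not overlap (exact permutation p = 0.1). Acta1 and Ttn, which define striated muscle, were no lower than 8746 and 26553 CPM in any of the 6 libraries.

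A gene was called where edgeR's quasi-likelihood test gave it an adjusted p below 0.01 and its level differed more than 2-fold. Between psoas and EDL, 340 of 16112 genes (2.11%) were called, 87 higher in psoas (0.54%) and 253 lower (1.57%). In 4776 genes (29.6%), the 3 libraries of one muscle lay wholly above the 3 of the other, 2151 of them higher in psoas (13.4%) and 2625 lower (16.3%). Without EDL 3, 963 genes (5.98%) were called, 406 higher (2.52%) and 557 lower (3.46%), and 331 of the 340 were among them. Leaving out any 1 of the other 5 libraries gave between 61 (without psoas 2) and 92 calls (without psoas 1). Of the 253 genes lower in psoas, 40 (15.8%) were on a list of genes of other tissues, 26 more (10.3%) followed the tendon genes from library to library, and 187 (73.9%) did neither. Of the 87 genes higher in psoas, 0 were on such a list, 1 followed the tendon genes (Tmem8b), and 86 (98.9%) did neither. Of all 16112 genes, 179 were on such a list, 417 followed the tendon genes without being on one, and 15516 did neither. The counts of 0 and 1 among the 87 lie near these shares. The medians of the 33 gene lists lay between -4.01 and 0.86 on the log2 scale, beside 0.01 over all genes.

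**Figure D1:**
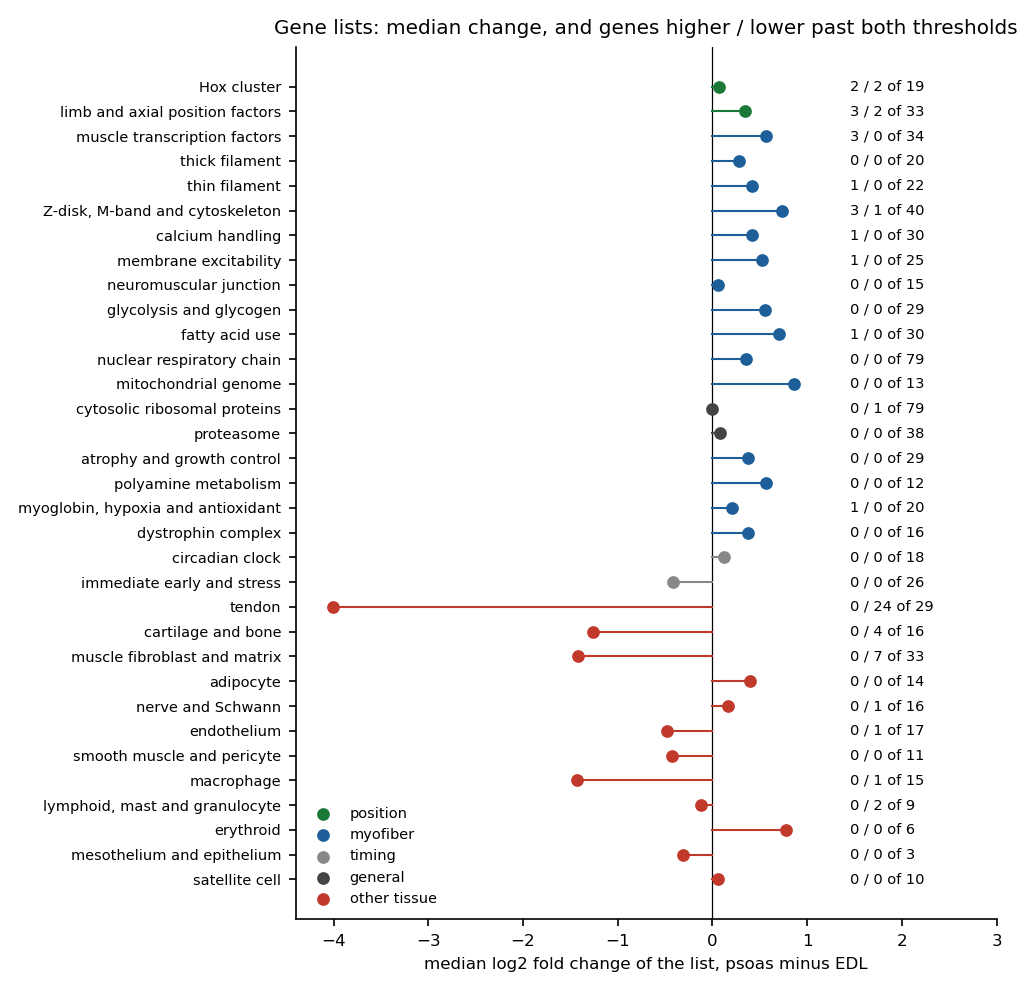
Median log2 fold change (psoas minus EDL, horizontal axis) of each of the 33 gene lists, colored by kind, with the number of genes called higher and lower in psoas of the genes tested at the right. The tendon list lies farthest from 0, at -4.01 with 24 of 29 genes called lower, while the lists of fiber genes lie between 0.06 and 0.86 with at most 3 calls upward.

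Transcription factors that mark position along the body and limb held the clearest single differences. Sim1, a basic helix-loop-helix PAS factor known from hypothalamic neurons and limb muscle precursors, was at 0.864, 1.17, and 1.15 CPM in EDL and 32.2, 21.5, and 19.2 CPM in psoas. Every psoas library was far above every EDL library (23-fold, log2 fold change of 4.52 ± 0.28 (SE), adjusted p = 5.2e-05), and soleus lay between at a mean of 8.91 CPM. The gene lies at chr10:50894754-50989152 (GRCm38) and was called in each of 10 fits that left out 1 library. Its paralog Sim2 had at most 1 count per library in EDL and 1.06, 0.507, and 1.27 CPM in psoas, a ratio of summed counts of 111 with a 95% counting interval of 19.3 to 4450 (adjusted p = 0.0014). The RefSeq promoter of Sim1, 250 bases before to 50 after its start at chr10:50895401-50895700 (GRCm38.p6, plus strand), is shown because Sim1 had the lowest adjusted p of all genes. The letters TATAAA, searched for as a TATA box, occur in this window on the opposite strand only, and no such role was tested. Capitals mark the 2 copies, 1 before the start and 1 after it:
Sim1: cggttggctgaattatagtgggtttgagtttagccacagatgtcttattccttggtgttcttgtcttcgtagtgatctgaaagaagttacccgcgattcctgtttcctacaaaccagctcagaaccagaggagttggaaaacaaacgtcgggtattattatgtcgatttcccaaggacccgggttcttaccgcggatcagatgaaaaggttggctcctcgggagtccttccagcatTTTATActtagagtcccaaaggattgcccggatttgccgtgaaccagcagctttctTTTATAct

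Tbx3, a T-box repressor that patterns the limb bud, also rose in psoas, from 1.82, 1.53, and 1.21 CPM to 4.8, 3.36, and 4.67 CPM (log2 fold change of 1.48 ± 0.26 (SE), adjusted p = 0.0075). Zic1, a zinc-finger factor of the dorsal somites and neural tube, fell from 2.45, 2.75, and 3.68 CPM in EDL to 0.633, 0.0634, and 0.283 CPM in psoas (log2 fold change of -2.98 ± 0.53 (SE), adjusted p = 0.0076). The psoas libraries were below every EDL library in this gene but spread widely among themselves. Of the 33 genes tested on the list of limb and axial position factors, Sim1, Sim2, and Tbx3 were called higher and Zic1 and Hotair lower. That was 15.2% called, beside 2.11% of all genes, and the median log2 fold change was 0.34. The median was 0.47 among trimmed libraries and -0.08 between EDL 3 and psoas 3, the untrimmed ones, and so turned sign with the libraries used. Tbx4 and Pitx1, which specify the hindlimb, did not pass the test and overlapped between muscles. Tbx4 was at 0.374, 0.358, and 0.494 CPM in EDL and 0.422, 0.571, and 0.779 CPM in psoas, and Pitx1 at 0.117, 0.207, and 0.439 CPM and 1.08, 0.888, and 0.425 CPM (adjusted p = 0.13). Tbx15, whose loss is known to alter glycolytic fibers, was at 142, 174, and 271 CPM and 309.5, 220.2, and 213 CPM (adjusted p = 0.49).

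The Hox genes parted the muscles by cluster and by place within the cluster. Hoxa13 (chr6:52257694-52260880) and Hoxa11 (chr6:52242106-52245810), neighbors at the end of the HoxA cluster that patterns distal limb segments, had no read in any psoas library. Hoxa13 was at 3.04, 4.2, and 4.17 CPM in EDL, at least 23.7-fold higher than the floor of 3 counts per library in psoas (adjusted p = 0.0015). Hoxa11 was at 2.29, 2.75, and 4.06 CPM in EDL, at least 18.9-fold higher (adjusted p = 0.00083). Both were called in all 10 fits without 1 library, and soleus had means of 2.01 and 1.05 CPM. Their neighbor Hoxa10 was present in both muscles, at 11.7, 11.3, and 16.6 CPM in EDL and 6.17, 5.77, and 6.09 CPM in psoas. Its libraries did not overlap, and the difference missed the threshold (log2 fold change of -1.13 ± 0.21, adjusted p = 0.011). Hoxa9, the next gene of the cluster, was at 4.48, 6.14, and 6.21 CPM and 8.23, 4.69, and 4.6 CPM, with overlapping libraries. The HoxA cluster thus held 3 genes with libraries apart and lower in psoas, and 4 without. The Hoxa11 promoter (chr6:52245761-52246060, minus strand, RefSeq, GRCm38.p6) is shown as that of a gene with 0 counts in psoas, with 1 copy of CAGCTG, an E-box of myogenic factors, in capitals:
Hoxa11: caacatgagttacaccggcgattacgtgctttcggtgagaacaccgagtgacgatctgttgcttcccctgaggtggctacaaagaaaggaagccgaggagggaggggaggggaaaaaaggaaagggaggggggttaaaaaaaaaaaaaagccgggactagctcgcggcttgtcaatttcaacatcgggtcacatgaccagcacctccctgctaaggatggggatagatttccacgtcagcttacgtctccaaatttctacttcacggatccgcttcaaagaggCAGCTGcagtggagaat

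In the HoxC cluster the direction was the opposite for 6 of 7 genes. Hoxc4, Hoxc5, Hoxc6, Hoxc8, Hoxc9, and Hoxc10 were each higher in all 3 psoas libraries than in any EDL library, beside 13.4% of all genes. The annotated span of Hoxc5 (chr15:102967443-103017429) covers Hoxc6, Hoxc8, and Hoxc9 and overlaps Hoxc10. Reads may therefore have been shared, and these genes are not fully separate counts. Hoxc8 (chr15:102990607-102994111) rose from 0.35, 0.339, and 0.165 CPM in EDL to 2.37, 1.46, and 1.91 CPM in psoas (log2 fold change of 2.67 ± 0.45 (SE), adjusted p = 0.0061). Hoxc5 rose from 0.444, 0.735, and 0.385 CPM to 2.11, 2.16, and 1.63 CPM (log2 fold change of 1.87 ± 0.35 (SE), adjusted p = 0.0095), and missed the threshold without EDL 3 (adjusted p = 0.01). Hoxc6 was at 0.701, 0.754, and 0.824 CPM and 4.38, 3.17, and 2.41 CPM, a log2 difference of 2.14 ± 0.46 that missed the threshold (adjusted p = 0.016). Hoxc10 was at 0.607, 0.622, and 1.54 CPM and 3.59, 2.54, and 1.77 CPM (adjusted p = 0.031), and was called without EDL 3 (log2 fold change of 2.11, adjusted p = 0.0052). Hoxc9 and Hoxc4 had log2 differences of 1.01 and 1.49 (adjusted p = 0.037 and 0.1).

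Hoxc11 had the reverse order, with 1.24, 1.26, and 1.21 CPM in EDL and 0.343, 0.761, and 0.0708 CPM in psoas (log2 difference of -1.65, adjusted p = 0.049). Hotair, a long noncoding RNA transcribed from the opposite strand beside Hoxc11, was at 0.42, 0.358, and 0.275 CPM in EDL and had 0 counts in psoas, at least 2.19-fold lower (adjusted p = 0.0061). The strand setting of the counting is not given in the sources used here, so reads of the pair may not be told apart. In the HoxD cluster, Hoxd10 was at 0.374, 0.471, and 0.604 CPM in EDL and had 3 counts in all in psoas, a ratio of 10.3 with a 95% counting interval of 3.33 to 51.6 that missed the threshold (adjusted p = 0.05). Hoxd9 and Hoxd8 overlapped between muscles, as did both genes of the HoxB cluster. Of the 19 Hox genes tested, 6 lay apart and higher in psoas (31.6%) and 5 apart and lower (26.3%), beside 13.4% and 16.3% of all genes. The highest level of any Hox gene in the 6 libraries was that of Hoxa10 in EDL 3.

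**Figure D2:**
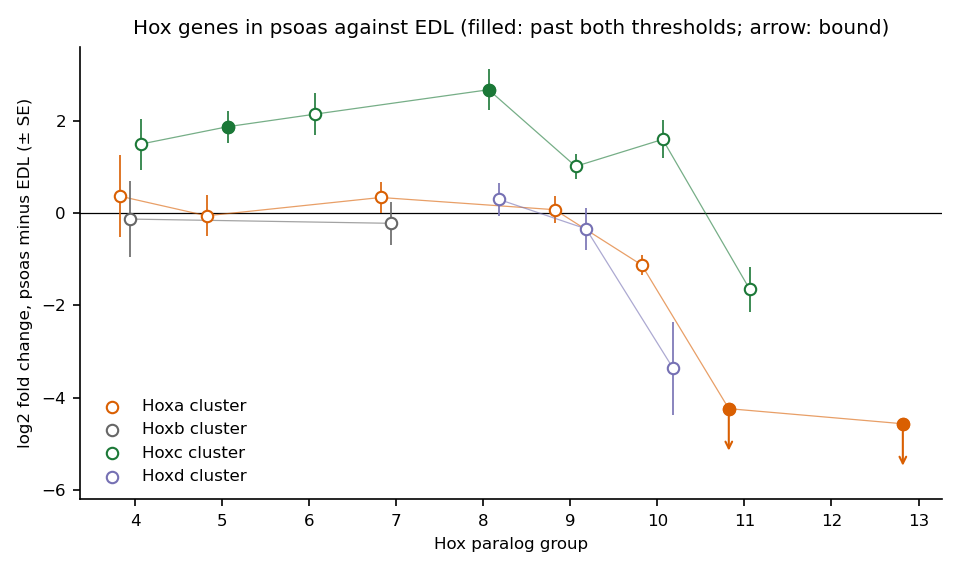
Log2 fold change of the 19 Hox genes (vertical axis, psoas minus EDL, bars ± SE) by paralog group (horizontal axis), with 1 color per cluster and filled points for called genes. Hoxa11 and Hoxa13 are drawn at their bounds, with arrows since both had 0 counts in psoas, and Hoxd10 at its ratio of counts. HoxC genes of groups 4 to 10 lie above 0, while the HoxA and HoxD genes of group 10, the HoxA and HoxC genes of group 11, and Hoxa13 lie below 0 by more than their SE.

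Among regulators of muscle genes, 3 of 34 were called and all 3 rose in psoas (8.82%, beside 0.54% of all genes). Tead1, which binds the MCAT elements of contractile genes, was at 25.1, 29.5, and 41.4 CPM in EDL and 119, 83.7, and 108 CPM in psoas. The lowest psoas library was about 2 times as high as the highest EDL library (log2 fold change of 1.70 ± 0.29 (SE), adjusted p = 0.0065). Vgll2, a cofactor of the TEAD factors in skeletal muscle, rose from 1.89, 2.53, and 2.47 CPM to 7.31, 4.95, and 6.09 CPM (log2 fold change of 1.42 ± 0.22 (SE), adjusted p = 0.0042). Esrrg, an orphan nuclear receptor of oxidative metabolism, rose from 1.8, 2.79, and 2.64 CPM to 7.55, 6.28, and 6.8 CPM (log2 fold change of 1.52 ± 0.20 (SE), adjusted p = 0.0023), and its mean in soleus was higher still, at 29 CPM. The myogenic factors did not pass the test. Myf6 was at 59.9, 63.9, and 61.1 CPM in EDL and 84, 57.3, and 60.3 CPM in psoas, and Myod1 at 1.59, 2.47, and 3.95 CPM and 7.68, 2.35, and 3.75 CPM (adjusted p = 0.24). Of the 34 genes, 29 were higher in psoas, with a median of 0.57 (0.70 in trimmed and 0.36 in untrimmed libraries). Sox6, a repressor of slow fiber genes, was at 35.3, 41.8, and 45.8 CPM and 88.3, 73.3, and 67.1 CPM, past the p threshold but not that of the fold change (log2 difference of 0.90, adjusted p = 0.0095).

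Among genes of the contractile filaments, Tpm2 was edgeR's only call (4.55% of the thin filament list, beside 2.11% of all genes). On the thin filament list DESeq2 called 2 genes higher and 3 lower, and limma-voom 1 higher and 1 lower (14 had an unadjusted p under 0.05 in edgeR). Of 20 thick filament genes edgeR called 0 (7 had an unadjusted p under 0.05, and DESeq2 called 4 and limma-voom 1, all lower), with a median of 0.28 that was -0.03 in trimmed and 0.03 in untrimmed libraries. In the thin filament, Tpm2, the beta-tropomyosin that blocks myosin sites on actin at rest, was at 320.1, 425, and 419 CPM in EDL and 1171, 846, and 979 CPM in psoas. Every psoas library was well above every EDL library (2.57-fold, log2 fold change of 1.36 ± 0.20 (SE), adjusted p = 0.0036), and soleus had a mean of 746 CPM. Tpm1, the alpha-tropomyosin of fast fibers, was also apart, at 8368, 9144, and 11227 CPM and 15965, 15227, and 13102 CPM, without passing the test (adjusted p = 0.16). Acta1, the skeletal actin gene, was at 8746, 8883, and 18863 CPM and 19649, 17343, and 25907 CPM, and EDL 3 reached the psoas range (adjusted p = 0.19). Lmod3, which nucleates thin filaments, was at 97.4, 99.4, and 88.5 CPM and 188, 154, and 219 CPM, past the p threshold with a change just under 2 times (log2 difference of 0.98, adjusted p = 0.0081). The Tpm2 promoter (chr4:43523505-43523804, minus strand, RefSeq, GRCm38.p6) is shown as that of the only called gene of the filament lists, with its 1 CAGCTG in capitals:
Tpm2: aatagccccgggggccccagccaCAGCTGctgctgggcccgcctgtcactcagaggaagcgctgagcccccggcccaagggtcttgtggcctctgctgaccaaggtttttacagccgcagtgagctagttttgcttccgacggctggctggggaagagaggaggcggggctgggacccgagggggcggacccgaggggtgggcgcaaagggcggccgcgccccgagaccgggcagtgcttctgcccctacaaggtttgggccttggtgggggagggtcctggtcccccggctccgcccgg

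The Z-disk, M-band, and cytoskeleton list had the highest share of genes apart and higher in psoas of all 33 lists. Of its 40 genes, 25 (62.5%) were higher in every psoas library than in any EDL library, beside 13.4% of all genes, and its median was 0.73 (0.75 in trimmed and 0.56 in untrimmed libraries). Called upward were Ldb3, Hspb6, and Cryab. In either direction 10% of the list was called, beside 2.11% of all genes. Ldb3, a PDZ-LIM protein that ties alpha-actinin into the Z-disk, rose from 129.9, 144, and 147 CPM to 396, 285, and 312 CPM (log2 fold change of 1.24 ± 0.18 (SE), adjusted p = 0.0031). Hspb6, a small heat shock protein, rose from 13.3, 18.3, and 15.1 CPM to 47.3, 31.8, and 35.8 CPM (log2 fold change of 1.30 ± 0.18 (SE), adjusted p = 0.0029). Cryab, the chaperone alphaB-crystallin that binds desmin and titin, rose from 6, 5.56, and 7.41 CPM to 26.7, 13, and 18.1 CPM (log2 fold change of 1.62 ± 0.26 (SE), adjusted p = 0.005).

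Other structural genes lay apart without being called. Ttn, the giant spring of the sarcomere, was at 26767, 26553, and 27841 CPM in EDL and 39989, 47931, and 55281 CPM in psoas (log2 difference of 0.82, adjusted p = 0.13). Although a fiber gene, Ttn also followed the tendon genes from library to library (Pearson correlation of 0.74 within muscles). Des, the intermediate filament desmin, was at 166, 302, and 197 CPM and 716, 497, and 443 CPM (adjusted p = 0.015). DESeq2 called 12 genes of the list higher and 1 lower, and edgeR without EDL 3 called 8 higher in place of 3. Xirp2, Cmya5, Myom1, Myoz3, and Synpo2l were the 5 added. Over all 16112 genes, DESeq2 called 429 higher. There edgeR without EDL 3 called 406 higher (2.52%) in place of 87 (0.54%), so calls rose well beyond this list. Xirp2 was at 785, 932, and 1903 CPM in EDL and 3847, 3136, and 3019.9 CPM in psoas, with a log2 difference of 1.47 (adjusted p = 0.019) that became 1.96 without EDL 3 (adjusted p = 0.0017). Ankrd1 was the exception in direction. This ankyrin repeat protein, which binds titin and is induced by strain, fell from 40.4, 54.3, and 40.3 CPM in EDL to 1.27, 1.52, and 0.637 CPM in psoas (38.5-fold lower, log2 fold change of -5.27 ± 0.63 (SE), adjusted p = 0.0014). No EDL library came near the psoas libraries, its mean in soleus was 15.9 CPM, and it was called in 9 of 10 fits without 1 library.

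**Figure D3:**
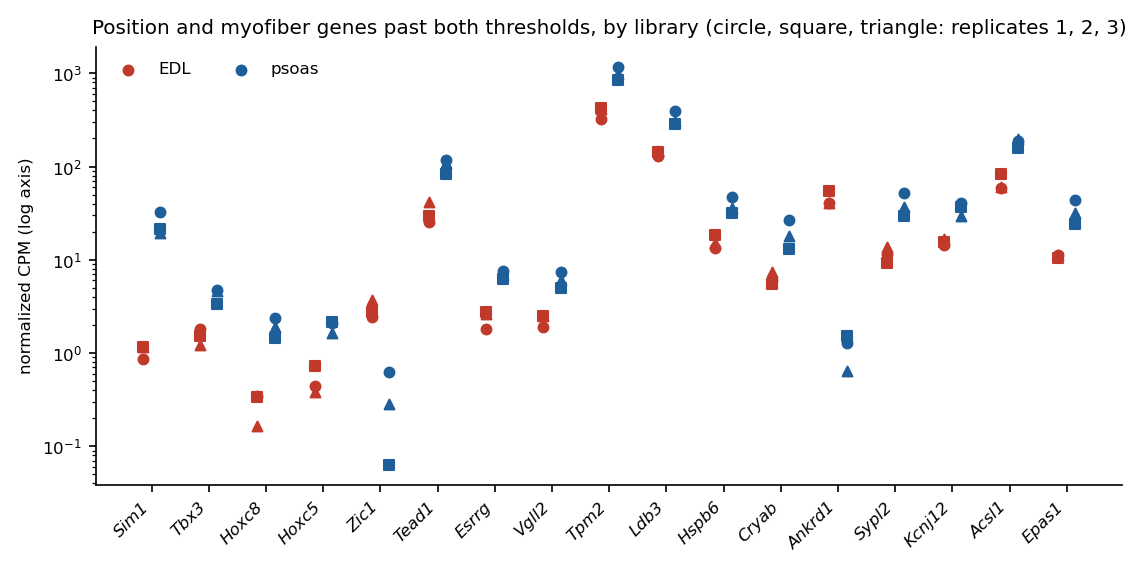
Normalized CPM (vertical axis, log scale) of 17 called position and fiber genes in each EDL (red) and psoas (blue) library, with a marker shape per replicate. In each gene the 3 libraries of a muscle lie wholly above or below those of the other, and Zic1 and Ankrd1 are the genes that are lower in psoas.

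The slow fiber genes Tnni1, Tnnt1, Tpm3, Myh7, and Myl2 had negative log2 differences between -1.56 and -3.08, and edgeR called none of them over all 10 libraries. DESeq2 and limma-voom did call some genes of the filament lists lower, as counted above. Tnni1, slow troponin I, was at 1.91, 4.47, and 16.8 CPM in EDL and 0.528, 1.33, and 2.2 CPM in psoas, with an overlap (adjusted p = 0.049). Tnnt1, slow troponin T, was at 5.56, 12.3, and 34.2 CPM and 1.58, 2.16, and 6.02 CPM (adjusted p = 0.031). Tpm3, the slow tropomyosin, was at 17.6, 24.6, and 37.1 CPM and 10.6, 6.72, and 9.42 CPM, apart but above the threshold (adjusted p = 0.011), and was called without EDL 3 (log2 fold change of -1.24, adjusted p = 0.0099). EDL 3 was the highest of the 6 libraries in Tnni1, Tnnt1, Tpm3, Myh7, and Myl2. In soleus these genes had means of 1128, 2401, 2265, 9824, and 3881 CPM.

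On the lists of calcium handling and of membrane excitability, 1 gene each was called (3.33% and 4%, beside 2.11% of all genes). Sypl2 (mitsugumin 29), a protein of the triad where the action potential meets the sarcoplasmic reticulum, rose from 11.5, 9.27, and 13.7 CPM in EDL to 51.5, 29.5, and 36.9 CPM in psoas (log2 fold change of 1.78 ± 0.31 (SE), adjusted p = 0.0071). Ryr1, the calcium release channel, was at 539.8, 698, and 2062 CPM and 2493, 1749, and 3063 CPM. EDL 3 lay within the psoas range and EDL 1 and 2 far below it (adjusted p = 0.13, and 0.0048 without EDL 3). Atp2a1, the fast calcium pump, had the same shape, with 1732, 1452, and 4037 CPM and 4648, 3482, and 5849 CPM (adjusted p = 0.13, and 0.0081 without EDL 3). Pvalb, the calcium buffer of fast fibers, overlapped at 4601, 4696, and 8210.3 CPM and 6418, 5800.1, and 6433 CPM. The 30 genes of the list had a median of 0.42 (0.50 in trimmed and 0.16 in untrimmed libraries).

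Kcnj12, an inward rectifier potassium channel, rose from 14.3, 15.4, and 16.7 CPM to 41, 36.8, and 29.5 CPM (log2 fold change of 1.21 ± 0.21 (SE), adjusted p = 0.0071). Scn4a, the sodium channel of the muscle action potential, was apart at 56.2, 68.8, and 85.3 CPM and 169, 119, and 153 CPM but missed the threshold (adjusted p = 0.021). The chloride channel Clcn1 overlapped, at 32.1, 34.8, and 28.7 CPM and 35.6, 27.3, and 35.7 CPM. Of 15 genes of the neuromuscular junction and 16 of the dystrophin complex edgeR called 0, with medians of 0.06 and 0.37. An unadjusted p under 0.05 was found for 3 and 7 of them, DESeq2 called 1 (lower) and 3 (higher), and limma-voom 0 and 0. Dmd, the dystrophin gene, overlapped at 319, 361, and 284 CPM and 246, 289, and 307 CPM, whereas Dag1, its membrane anchor, was apart at 25.7, 27.3, and 35.6 CPM and 82.4, 43, and 70.4 CPM (adjusted p = 0.021).

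On the lists of fatty acid use and of glycolysis and glycogen, Acsl1 was edgeR's only call. That was 3.33% of the list of fatty acid use, beside 2.11% of all genes. On this list DESeq2 called 8 genes and limma-voom 2, all higher. Acsl1, which activates long-chain fatty acids, rose from 59, 83.6, and 60.1 CPM in EDL to 186, 157, and 196 CPM in psoas (log2 fold change of 1.41 ± 0.21 (SE), adjusted p = 0.0039), in a list of 30 genes. Pdk4, the kinase that turns pyruvate dehydrogenase off, was at 75.1, 144, and 25.3 CPM and 559.9, 589, and 590.5 CPM. The psoas libraries were nearly equal and the EDL libraries ranged widely below them, with a log2 difference of 2.83 ± 0.55 that just missed the threshold (adjusted p = 0.012, and 0.0065 without EDL 3). Lpl, lipoprotein lipase, was at 255, 218, and 236 CPM and 429, 454, and 532 CPM, past the p threshold but not that of the fold change (adjusted p = 0.0087). The list had a median of 0.70 (0.62 in trimmed and 0.72 in untrimmed libraries), and 13 genes (43.3%) lay apart and higher, beside 13.4% of all genes. Cd36, a fatty acid transporter, was not among them, at 312, 335, and 210.1 CPM and 231, 354, and 336 CPM.

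Of 29 genes of glycolysis and glycogen use edgeR called 0 (18 had an unadjusted p under 0.05, and DESeq2 called 3, all higher, and limma-voom 0), 16 (55.2%) lay apart and higher in psoas, beside 13.4% of all genes, and the median was 0.55 (0.71 in trimmed and 0.27 in untrimmed libraries). Gapdh was at 1433, 1415, and 2273 CPM in EDL and 4367, 2720.2, and 3619 CPM in psoas (adjusted p = 0.038). Pygm, muscle glycogen phosphorylase, was at 1480.5, 1659, and 3118 CPM and 3622, 3029.7, and 3956 CPM, with EDL 3 in the psoas range, and was called together with Ldha only without EDL 3 (adjusted p = 0.0097 and 0.0068). Epas1, the hypoxia factor HIF-2alpha, rose from 11.2, 10.5, and 11.2 CPM to 43.9, 24.5, and 31.9 CPM (log2 fold change of 1.61 ± 0.27 (SE), adjusted p = 0.0063). Mb, the oxygen store of oxidative fibers, overlapped at 1258, 1655, and 1699 CPM and 1311, 2009, and 2315 CPM. Of 79 nuclear genes of the respiratory chain 0 were called by edgeR, DESeq2, or limma-voom (19 had an unadjusted p under 0.05). In 15 of them (19%) the libraries lay apart and higher in psoas, near the 13.4% of all genes. By direction alone, 77 of the 79 were higher in psoas (77 in trimmed and 72 in untrimmed libraries). Their median was 0.35, beside 0.01 over all genes. The 13 genes of the mitochondrial genome had a median of 0.86 and 0 calls by any of these tools (4 at an unadjusted p under 0.05), and 1 of them (mt-Co3) had libraries apart. That median was 0.92 in trimmed and 0.45 in untrimmed libraries, and 0.55 with high Lars2 counts as a covariate.

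Some polyamine genes were high in psoas 1 and 2 but not in psoas 3. Smox, spermine oxidase, was at 45.5, 75.5, and 40.9 CPM in EDL and 615, 245, and 50 CPM in psoas (adjusted p = 0.04), so that psoas 3 lay within the EDL range. Amd1, whose product S-adenosylmethionine decarboxylase feeds spermidine synthesis, was at 350.2, 363, and 207 CPM and 2449, 1962, and 283 CPM (adjusted p = 0.038). Amd2 is a near-identical copy with the same shape, and reads of the pair may have been split between them. The psoas libraries that were high had 9.31% and 12.4% of counts in Lars2, while EDL 1, at 9.25%, was low. With high Lars2 counts as a covariate the median of the polyamine list was 0.68, beside 0.57 in the main fit. The cause of the difference between the psoas libraries was not tested. Odc1, the first enzyme of the pathway, was apart, at 67.5, 58.2, and 53.8 CPM and 473, 141, and 95.1 CPM (adjusted p = 0.026), and highest in psoas 1. Of the 12 polyamine genes, 3 lay apart and higher in psoas (25%) and 4 apart and lower (33.3%), beside 13.4% and 16.3% of all genes. Of 12 polyamine genes and 29 of atrophy and growth control edgeR and limma-voom called 0. An unadjusted p under 0.05 was found for 9 and 10 of them, and DESeq2 called 2 (1 higher) and 3 (2 higher). Fbxo32 (atrogin-1), an atrophy ubiquitin ligase, was apart at 32, 47.2, and 61.8 CPM and 85.8, 115, and 145 CPM (adjusted p = 0.015, and 0.0056 without EDL 3), and Mstn, the growth inhibitor myostatin, overlapped at 58.3, 48.3, and 72.8 CPM and 145, 64.3, and 67.5 CPM.

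Genes of general upkeep and of sampling time served as a measure beside these. The 79 cytosolic ribosomal protein genes had a median of -0.01, and Rpl3 alone was called (-1.14, adjusted p = 0.006). That was 1.27% of the list, beside 2.11% of all genes. Eef1a1, the elongation factor whose paralog Eef1a2 serves adult muscle, was also called lower, at 755, 807, and 574 CPM and 347, 279, and 362 CPM. Both have processed pseudogenes that can share their reads. The 38 proteasome genes had a median of 0.08, with 0 called by edgeR, DESeq2, or limma-voom (4 at an unadjusted p under 0.05). Of 18 clock genes edgeR and limma-voom called 0 and DESeq2 1 (3 at an unadjusted p under 0.05), with Arntl at 4.25, 12.7, and 6.65 CPM and 3.59, 14.4, and 8.14 CPM. Of 26 immediate early and stress genes edgeR and limma-voom called 0 and DESeq2 3, all lower (11 at an unadjusted p under 0.05). Fos was at 21.1, 22, and 4.61 CPM in EDL and 2.45, 4.5, and 1.06 CPM in psoas (adjusted p = 0.17), and 9 genes (34.6%) of the list lay apart and lower in psoas, beside 16.3% of all genes.

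The genes of tendon parted the muscles more than those of any other list. All 29 genes tested lay apart and lower in psoas (beside 16.3% of all genes), 24 were called lower (82.8%, beside 1.57%), and the median was -4.01 (-4.14 in trimmed and -3.78 in untrimmed libraries). The list was chosen with earlier results of these data known. It includes genes, Tnmd, Kera, and Wif1 among them, that the study ranked highest on a principal component that set EDL and psoas apart. Its shares and rank therefore describe the list and test nothing. In bulk RNA, fewer cells of a type and less RNA per cell cannot be told apart. The summed level of the list was 3192, 2390, and 2582 CPM in EDL and 201.4, 275.5, and 245.8 CPM in psoas. Tnmd (chrX:133850980-133865577), tenomodulin, which marks mature tendon cells, was at 145, 104, and 111 CPM in EDL and 1.42, 5.96, and 4.18 CPM in psoas. Every psoas library was far below every EDL library (32-fold lower, log2 fold change of -5.00 ± 0.71 (SE), adjusted p = 0.003), and soleus had a mean of 46.5 CPM.

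The transcription factors of tendon fell as well. Mkx fell from 14.4, 10.3, and 11.5 CPM to 0.396, 1.39, and 0.637 CPM (log2 fold change of -3.97 ± 0.58 (SE), adjusted p = 0.0034). Scx fell less, from 7.33, 10.2, and 8.18 CPM to 1.16, 1.52, and 1.84 CPM (log2 fold change of -2.53 ± 0.47 (SE), adjusted p = 0.0094). Wif1, a secreted Wnt inhibitor, fell from 36.7, 26.2, and 29.4 CPM to 0.132, 0.507, and 0.85 CPM (log2 fold change of -6.19 ± 0.93 (SE), adjusted p = 0.0036). Comp, a cartilage and tendon matrix protein, fell from 29.4, 31.3, and 41.9 CPM to 0.449, 1.46, and 2.2 CPM (log2 fold change of -4.77 ± 0.50 (SE), adjusted p = 0.00084), and Angptl7 from 268, 295, and 131 CPM to 9.97, 11, and 14.7 CPM. Col1a1 and Col1a2, the chains of type I collagen, were apart but not called. Col1a1 was at 509, 165, and 442 CPM in EDL, with EDL 2 the lowest, and 17, 21.7, and 33 CPM in psoas (adjusted p = 0.016). The others not called were Ptx4, Fibin, and Ccn2.

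**Figure D4:**
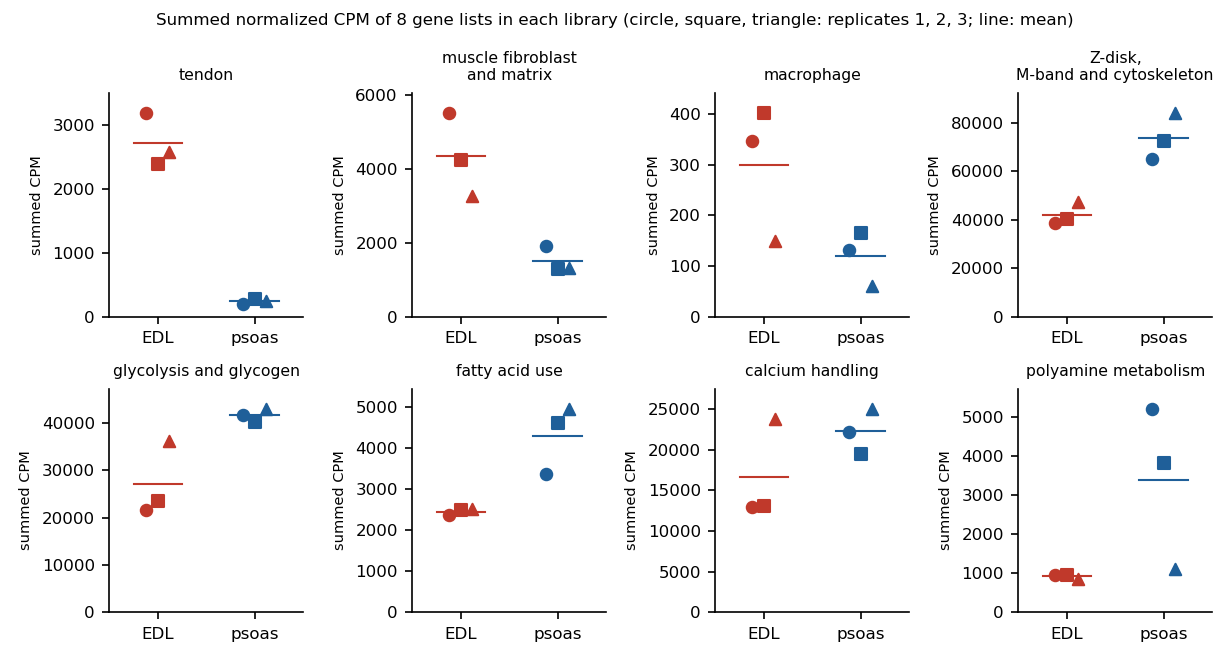
Summed normalized CPM (vertical axes, each from 0) of 8 gene lists in each EDL and psoas library, with a marker shape per replicate and a line at the mean. Tendon and fibroblast levels are lower in every psoas library and Z-disk, glycolysis, and fatty acid levels higher, macrophage and calcium handling levels overlap through EDL 3, and the polyamine level of psoas 3 lies close to EDL.

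The lists of cartilage and bone, fibroblasts and matrix, and macrophages had medians below 0 but nearer to it than that of tendon. Epyc, a small proteoglycan of cartilage, was at 4.62, 3.75, and 7.63 CPM in EDL and had 1 count in all in psoas, a ratio of 318 with a 95% counting interval of 56.9 to 12600 (adjusted p = 0.00099). Matn3, Ucma, and Cnmd were also called, but Sox9 and Alpl were not and were higher in psoas, at log2 differences of 1.01 and 1.02. The 16 cartilage and bone genes had a median of -1.26, and 25% were called lower, beside 1.57% of all genes. Of 33 genes of muscle fibroblasts and matrix, 7 were called lower (21.2%, beside 1.57% of all genes), 30 (90.9%) lay apart and lower (beside 16.3%), and the median was -1.42 (-1.52 in trimmed and -1.32 in untrimmed libraries). Lox, which cross-links collagen, fell from 43.4, 36, and 48.8 CPM to 3.75, 4.12, and 3.82 CPM (log2 fold change of -3.46 ± 0.44 (SE), adjusted p = 0.0018). Dcn, decorin, fell from 1029, 1369, and 727 CPM to 373, 383, and 204 CPM (log2 fold change of -1.70 ± 0.29 (SE), adjusted p = 0.0065). Pdgfra, which marks fibroadipogenic cells, was at 69.5, 65.9, and 38.3 CPM and 30.5, 31.2, and 24.9 CPM, just past the threshold of the fold change but not that of the adjusted p (0.016, and 0.0014 without EDL 3, where it was called).

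All 15 macrophage genes had a negative log2 difference, with a median of -1.43, and 1 was called (6.67%, beside 2.11% of all genes). Of the 9 lymphoid, mast cell, and granulocyte genes, 4 were higher in psoas and 5 lower, with a median of -0.12. Mrc1, the mannose receptor, fell from 69.5, 66, and 35.2 CPM to 21, 19.1, and 13.6 CPM (log2 fold change of -1.66 ± 0.28 (SE), adjusted p = 0.0066), while Adgre1 (F4/80) overlapped through EDL 3, at 10.8, 13.2, and 4.89 CPM and 4.93, 5.33, and 1.91 CPM. Without EDL 3, 5 of the 15 macrophage genes were called lower, beside 557 of all 16112 genes (3.46%). The mast cell proteases Mcpt4 and Cpa3 fell, with log2 fold changes of -2.25 ± 0.32 and -2.02 ± 0.36 (adjusted p = 0.0031 and 0.0078). Ighm, of B cells, was higher in psoas at 10.9, 8.07, and 6.21 CPM and 84, 63.7, and 14.4 CPM (adjusted p = 0.017). Prph, the filament of peripheral neurons, was called lower with a ratio of 48 with a 95% counting interval of 18.6 to 177 (EDL over psoas). Mbp, a myelin gene, overlapped and was highest in psoas 3, at 11, 11.9, and 6.81 CPM and 17.6, 5.2, and 33.6 CPM. Of 17 endothelial genes only Egfl7 was called (5.88%, beside 2.11% of all genes), at -1.31 (adjusted p = 0.0081). Pecam1 was at 83.3, 71.3, and 39.7 CPM and 44.3, 34.6, and 51.8 CPM. No gene of the adipocyte (14), smooth muscle and pericyte (11), erythroid (6), mesothelium and epithelium (3), or satellite cell (10) lists was called in edgeR's test, with medians of 0.40, -0.43, 0.78, -0.31, and 0.06. Of their genes 4, 5, 0, 0, and 1 had an unadjusted p under 0.05, and DESeq2 called 1, 1, 0, 0, and 0, and limma-voom 0 in each. Adipoq, of fat cells, was at 2.08, 5.37, and 5.22 CPM and 8.42, 3.04, and 1.06 CPM, and Pax7, of satellite cells, at 0.537, 0.339, and 0.769 CPM and 0.633, 0.317, and 0.567 CPM.

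A tendon score (the mean log2 CPM of Tnmd, Scx, Mkx, Fmod, Comp, Thbs4, Kera, and Chad) was used to find called genes that moved with tendon. It was between 5.51 and 5.53 in EDL, 0.61 and 2.04 in psoas, and 3.10 and 5.22 in soleus. After each muscle's mean was taken off, 45 of the 253 genes lower in psoas (17.8%) had a Pearson correlation of at least 0.7 with it over the 10 libraries, beside 2.72% of all genes and 1 of the 87 genes higher in psoas (1.15%). The EDL libraries hardly differed in the score, so these correlations rest mainly on psoas and soleus. Among the 213 lower genes on no other-tissue list, 26 (12.2%) met it, Spock3, Zfp185, Col8a2, and Vit among them. Vit, a matrix protein, was at 20.3, 19.5, and 13.2 CPM in EDL and 0.976, 1.33, and 1.13 CPM in psoas. The 45 include genes that make up the score. With the score as a covariate, 0 genes were called in the edgeR fit (879 at an unadjusted p under 0.05), in which the score itself was lower in every psoas library than in any EDL library.

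**Figure D5:**
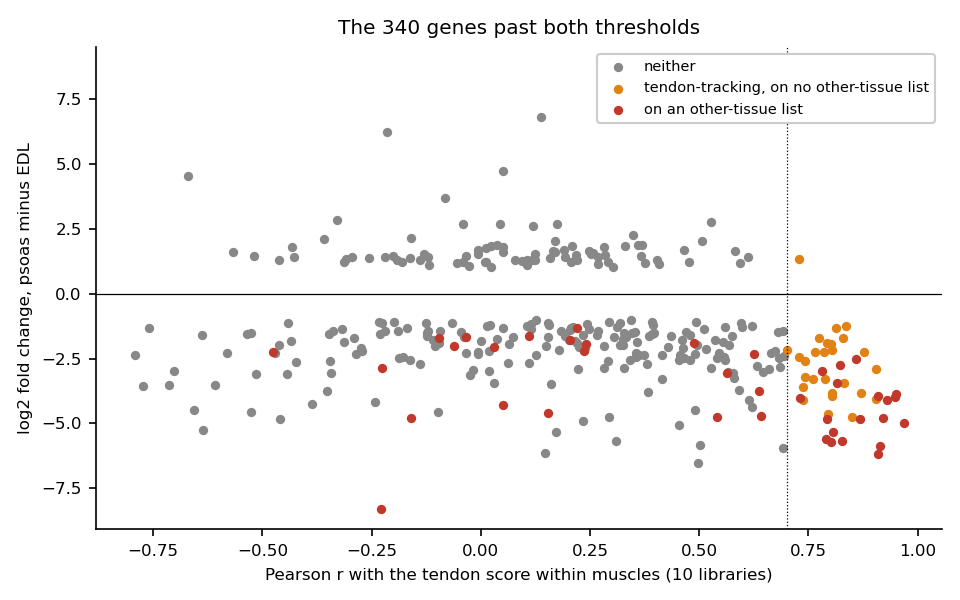
Log2 fold change of the 340 called genes (vertical axis, psoas minus EDL) against their Pearson correlation with the tendon score within muscles over 10 libraries (horizontal axis), by kind. Genes with few or 0 counts in a muscle are drawn at their bound or ratio of counts, and the dotted line marks 0.7. Nearly all points right of the line lie below 0, with Tmem8b as the only one above.

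The other 187 genes lower in psoas were a mix. Beside Hoxa13, Hoxa11, and Ankrd1, those of the lowest fold change included Crabp1, a retinoic acid binding protein, at 1.61, 1.81, and 2.25 CPM in EDL and 0, 0, and 0.142 CPM in psoas. Chd5, a chromatin remodeler, was at 0.981, 1.07, and 1.04 CPM and 0, 0.0634, and 0 CPM, and Oit3 at 1.35, 1.38, and 1.32 CPM and 0.0264, 0, and 0 CPM. Pla2g5, a secreted phospholipase, fell from 2.73, 4.37, and 5.44 CPM to 0, 0.127, and 0.354 CPM (log2 fold change of -5.06 ± 0.76 (SE), adjusted p = 0.0036). Miat, a long noncoding RNA, was at 2.87, 1.73, and 1.87 CPM and 0.0528, 0, and 0.212 CPM, and Anxa8, an annexin, at 5.88, 11.1, and 4.17 CPM and 0.528, 0.19, and 0.0708 CPM. Spon2 and Ccn4, both secreted into the matrix, had log2 fold changes of -4.48 ± 0.76 and -4.38 ± 0.74. AW551984 was far higher in EDL 1 than in EDL 2 and 3 (15.5, 2.45, and 2.42 CPM), and at most 0.283 CPM in psoas. Genes known from connective tissue that the lists leave out (Mgp, Ctsk, Cdh11, Fbln1, and Vim) were in this group as well, so these 187 are not a set of fiber genes. The part of connective tissue in their values was not tested.

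Among called genes with a mean of 1 CPM or more in psoas, outside the tendon and other-tissue kinds, the 12 of highest fold change were Crip3, Rxfp2, Sim1, BC048679, Vash2, Mgam, Amhr2, Hoxc8, Adig, Fhl3, Tbc1d4, and Rai2. The lists do not hold every gene of other tissues, so the 86 higher genes of this kind are not a set of fiber genes. The part of other tissues in their values was not tested. Fhl3, a LIM protein that binds actin and muscle transcription factors, rose from 4.04, 4.5, and 6.15 CPM in EDL to 37.1, 25.9, and 25 CPM in psoas (6.05-fold, log2 fold change of 2.60 ± 0.31 (SE), adjusted p = 0.0014; chr4:124700701-124708611). Tbc1d4 (AS160), which gates insulin-driven movement of the glucose transporter GLUT4, rose from 11.3, 10.8, and 12.9 CPM to 42.4, 35, and 90.1 CPM (log2 fold change of 2.26 ± 0.34 (SE), adjusted p = 0.0036), with psoas 3 the highest. Its cargo gene Slc2a4 was apart at 127, 149.7, and 161 CPM and 237, 214, and 226 CPM without passing the test (adjusted p = 0.029). Amhr2, the receptor of anti-Müllerian hormone, rose from 0.467, 0.452, and 1.21 CPM to 3.64, 4.95, and 4.25 CPM (log2 fold change of 2.69 ± 0.37 (SE), adjusted p = 0.0029).

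Rxfp2, the receptor of insulin-like peptide 3, rose from 0.0934, 0.0188, and 0 CPM in EDL to 1.08, 0.951, and 1.77 CPM in psoas (adjusted p = 0.0058), and Crip3, a LIM protein, was at 0.0467, 0.0188, and 0 CPM and 2.51, 0.571, and 1.98 CPM, a ratio of 74.1 with a 95% counting interval of 24.8 to 364. Mgam, an alpha-glucosidase of starch digestion, rose from 0.42, 0.32, and 0.275 CPM to 2.72, 2.41, and 1.84 CPM (log2 fold change of 2.75 ± 0.38 (SE), adjusted p = 0.0029). Vash2, a tubulin carboxypeptidase, rose from 0.677, 0.433, and 0.22 CPM to 3.69, 2.54, and 3.75 CPM (log2 fold change of 2.83 ± 0.40 (SE), adjusted p = 0.0029). BC048679 was highest in psoas 3, at 0.976, 0.951, and 4.39 CPM against 0.14, 0.132, and 0.22 CPM in EDL, and was called in 1 of 10 fits without 1 library. Tmem8b, the gene that followed the tendon score within muscles, rose against it between them, from 1.73, 1.6, and 1.65 CPM to 3.98, 3.93, and 4.6 CPM (log2 fold change of 1.32 ± 0.24 (SE), adjusted p = 0.0079).

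Of the 340 called genes, 41 were called in all 10 fits that left out 1 library, 4 of them higher in psoas (Sim1, Sim2, Fhl3, and Paqr9) and 37 lower. The lower ones held Hoxa11, Hoxa13, tendon genes, and secreted signals. Bmp3, a bone morphogenetic protein, fell from 8.41, 7.97, and 10.4 CPM to 0.792, 0.444, and 0.637 CPM (log2 fold change of -3.78 ± 0.37 (SE), adjusted p = 0.00068). The guidance genes Sema3a and Sema3d fell as well, with Sema3a at 16.5, 16.2, and 14.8 CPM and 3.17, 1.59, and 1.63 CPM and Sema3d at 15.1, 13.8, and 14.4 CPM and 3.4, 1.65, and 1.7 CPM. Dio2, the deiodinase that activates thyroid hormone, fell from 9.13, 7.65, and 7.8 CPM to 1.42, 1.14, and 1.27 CPM (log2 fold change of -2.66 ± 0.26 (SE), adjusted p = 0.00068), while Thrb, a receptor of that hormone, rose from 4.93, 5.65, and 6.59 CPM to 12.6, 14, and 11.8 CPM (log2 fold change of 1.16 ± 0.18 (SE), adjusted p = 0.005). Lepr, the leptin receptor, fell from 14.4, 13, and 9.45 CPM to 2.3, 2.54, and 2.83 CPM (log2 fold change of -2.27 ± 0.27 (SE), adjusted p = 0.0014). Paqr9 rose from 2.15, 2.24, and 2.8 CPM to 9.58, 8.24, and 8.28 CPM (log2 fold change of 1.87 ± 0.22 (SE), adjusted p = 0.0014). Many genes described above were called in fewer of these 10 fits. Hoxc5 was called in 1 of them, Tbx3, Sypl2, and Dcn in 2 each, and Tead1, Zic1, Kcnj12, Scx, and Mrc1 in 3 each.

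Promoters were searched on both strands for the TATA box, the E-box CAGCTG, and the core of TEAD sites, 3 motifs of which none is contained in another. RefSeq promoters of 10706 tested genes were matched by symbol. TATAAA was present in 7.5% of all of them, in 6 of 60 called genes higher in psoas (10%), in 21 of 139 lower genes of the remainder (15.1%), and in 11 of 47 lower genes of other tissues or with tendon (23.4%). CAGCTG was present in 15.4% of all, in 13 of the 60 (21.7%, Sypl2 and Tpm2 among them), in 21 of the 139 (15.1%), and in 8 of the 47 (17%). CATTCC, the TEAD motif, was present in 12.3% of all, in 6 of the 60 (10%, Acsl1 and Esrrg among them), in 28 of the 139 (20.1%), and in 9 of the 47 (19.1%). These are counts of letters in the window and were not tested.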

How the data were processed

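RNA-seq counts of 10 whole-muscle libraries were used (3 EDL, 3 psoas, 4 soleus). The authors deposited 1 file of raw counts per library: TruSeq Stranded Total RNA libraries after Ribo-Zero depletion, reads of EDL and psoas replicates 1 and 2 trimmed with Trimmomatic 0.32, all reads aligned with TopHat 2.1.1 to GRCm38.p4, and counted per gene in R with GenomicAlignments. A filter of 10 or more reads in 3 or more samples had been applied, which all 16112 genes met. FastQC, BWA, and Picard are also named in the submitters' processing notes. The strand setting of the counting and the treatment of reads with several matches are not given in the sources used here, nor is the sequencing run of each library. EDL and psoas samples carry 6 different animal codes, but soleus 1, 2, and 4 share those of psoas 1, EDL 3, and psoas 3. With that of soleus 3 this makes 7 codes, while the study's methods name 6 mice, so at least some libraries share an animal. The main model treats the 10 libraries as independent, and p-values measure the spread between them.

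Counts were tested as deposited with edgeR 4.0.16 (quasi-likelihood, TMM, R 4.3.3) over all 10 libraries in 1 model without covariates, with Benjamini-Hochberg adjustment over 16112 genes. A call needed an adjusted p under 0.01, as well as a fold change over 2. SE was the log2 fold change over the square root of F. Where a muscle had 0 counts in its 3 libraries, the bound was taken against 3 counts per library. Where its libraries held at most 3 counts each but not 0 in all, the ratio of summed counts is given with its exact 95% interval, which covers counting error only. DESeq2 1.42.0 and limma 3.58.1 (voom) were alternatives. On simulated counts for psoas and EDL over 16112 genes, the main test recovered 54 of 100 genes changed by log2 2 and 83 of 100 changed by log2 3, with 0 false calls.

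The members and the 33 gene lists were chosen with earlier results of these data known, and no set test was run. The genes named were the 12 highest and 12 lowest called genes (mean of 1 CPM or more in the higher muscle) that were on no other-tissue list and did not follow the tendon score, the 8 lowest and 5 highest of the others, up to 6 called and 2 abundant members of each list, and its first 3 genes. Chosen after their values were seen were the Hox genes, Angptl7, Bmp3, Cdh11, Comp, Ctsk, Dio2, Eef1a1, Fbln1, Gapdh, Ldha, Lepr, Lmod3, Mgp, Mstn, Myf6, Myh7, Myl2, Myod1, Paqr9, Pdk4, Sema3a, Sema3d, Slc2a4, Smox, Sox6, Sox9, Tbx4, Thrb, Tnni1, Tnnt1, Tpm3, Vim, Vit, and Xirp2. Gene positions are from GENCODE M21 and promoters from RefSeq. Python 3.11.15 with pandas 2.3.3 and scipy 1.17.1 was used.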

Additional observations from a re-analysis of the deposited data

Results flagged for a closer look

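The summed level of the 33 position factors stood apart in 1 soleus library, soleus 3, at 475.7 CPM, while the other 3 soleus libraries lay between 438.8 and 444.7 CPM (gap over range of 0.840, above Dixon's critical value). It was 1 of 34 groups tested in this way, and chance flags about 1 in 20. No EDL or psoas library could be tested, since both groups have 3 libraries.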

How the results depend on the processing

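The 340 calls (87 higher in psoas) stayed within 1.5 times under DESeq2 size factors (353), upper-quartile scaling (351), a filter at 1 CPM (344), and a Lars2 covariate chosen after the data were seen (335). limma-voom gave 353 calls with 135 higher, and the trimmed libraries alone 341 with 151 higher. DESeq2 called 1095 genes (429 higher), a trimming covariate 605 (201 higher), and an adjusted p under 0.05 gave 1233 (420 higher). Fewer were called by a test against a fold change of 2 (27, 2 higher) and in EDL and psoas alone (153, 11 higher). edgeR called 0 (0 higher) with the tendon score as covariate and 0 (0 higher) in the 2 untrimmed libraries alone, where 879 and 1172 genes had an unadjusted p under 0.05. The untrimmed fit had 1 library of EDL and 1 of psoas and borrowed its spread from soleus. The share of calls that were higher in psoas was 25.6%, beside 39.2% in DESeq2, 44.3% in the trimmed libraries, and 7.19% in EDL and psoas alone.

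With a replicate block in EDL and psoas alone, 291 genes were called (38 higher). The deviations of same-numbered libraries correlated at 0.25, 0.09, and 0.50 (across genes), so the numbers were not taken to pair the samples. Leaving out 1 library gave between 61 and 963 calls, 7 to 406 of them higher. The count moved by over 1.5 times without EDL 1 (69), EDL 2 (87), EDL 3 (963), psoas 1 (92), psoas 2 (61), psoas 3 (87), soleus 1 (194), and soleus 4 (174). With the tendon score as covariate the log2 fold changes of 11 named genes turned positive and none was called: Wif1 1.47, Matn3 1.66, Tnc 1.28, Col11a1 1.07, Scx 0.95, Tnmd 0.70, Mkx 0.64, Crabp1 0.40, Cilp2 0.38, Prph 0.28, and Mfap4 0.028. The causes of these moves were not tested. The low totals of EDL 3 and psoas 3 (15016122 and 13820086 counts) limit genes near the floor, Hox genes among them.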
